A study of Mus musculus with 4 samples.

Results

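Tubulin isotypes are the products of separate genes that supply the alpha and beta subunits of the tubulin dimer. The genes described here are 6 beta-tubulin genes (Tubb2a, Tubb2b, Tubb3, Tubb4b, Tubb5 and Tubb6) and 4 alpha-tubulin genes (Tuba1a, Tuba1b, Tuba4a and Tuba8). They were listed by symbol, and for each gene the probe set was selected on brightness, as the row with the highest mean over all 4 arrays among those paired with that symbol alone. Of the 10 genes, 9 had such a probe set among the 22180 genes measured. Tuba4a had none, because its only probe set is also paired with the neighbouring gene Stk16, and it is given no value. Of the 9, 7 passed the filter on low values and were tested. Tubb3 and Tuba1b did not pass.

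The data are RNA levels in the quadriceps of NF90-NF45 double transgenic mice (dbTg) and of wild-type mice (WT), with 2 animals in each group and 1 whole-transcript array per animal. NF90 and NF45 are partner proteins, and NF90 binds double-stranded RNA. In each group replicate 1 was male and replicate 2 was female. Both dbTg mice and WT replicate 2 were 16 weeks old, and WT replicate 1 was 17 to 18 weeks old, so age differs between the groups in the male pair. The strain, the promoter that drives the transgenes and whether the dbTg mice share a founder line are not stated in the labels. Ilf2, which encodes NF45, read 10.36 and 10.16 on the log2 scale in dbTg muscle, against 5.03 and 5.04 in WT muscle. The gene of NF90 was not analysed here.

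Microtubules are hollow polymers of alpha- and beta-tubulin dimers. In skeletal muscle fibres they form a lattice under the membrane and around the nuclei, and they guide organelles and nuclei. The isotypes are close relatives that differ mainly in their acidic C-terminal tails, which stick out from the polymer and carry most of its modifications. In mouse muscle, raised Tubb6 is known from regenerating and dystrophic fibres, where it goes with a disordered lattice.

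Sequences upstream of the start site are shown for Tubb5, a beta-tubulin gene that was called higher in dbTg, and for Tuba8, an alpha-tubulin gene known from muscle that was not called. RefSeq promoter sequences (GRCm38.p6) were matched for 8 of the 10 genes, and not for Tubb2b and Tubb6. Each line gives the 250 bases before the start, 5′ to 3′ on the gene's strand, and capitals mark matches to the motifs named after them.
Tubb5, chr17:35838302-35838551, minus strand: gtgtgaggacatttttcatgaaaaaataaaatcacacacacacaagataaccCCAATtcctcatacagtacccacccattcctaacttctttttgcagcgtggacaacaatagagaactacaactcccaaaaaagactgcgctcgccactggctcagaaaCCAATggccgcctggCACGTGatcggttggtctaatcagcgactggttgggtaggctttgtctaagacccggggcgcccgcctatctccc
Tuba8, chr6:121210484-121210733, plus strand: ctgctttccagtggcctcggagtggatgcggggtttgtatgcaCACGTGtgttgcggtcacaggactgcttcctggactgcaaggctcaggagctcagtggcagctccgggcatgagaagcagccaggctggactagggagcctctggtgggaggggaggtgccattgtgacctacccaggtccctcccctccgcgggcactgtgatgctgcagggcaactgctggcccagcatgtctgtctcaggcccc

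Both strands of this window were searched for 6 short motifs, chosen after the sequences were seen, in all 32851 promoter entries of the same table. The Tubb5 window holds the CCAAT box (CCAAT) at 2 places, and 33.8% of all windows hold it at least once. It also holds the E-box CACGTG, which is present in 6.02% of all windows. The Tuba8 window holds CACGTG as well. Neither window holds a TATA box (TATAAA, 12.4% of all windows), a GC box (GGGCGG, 32.7%), the E-box CAGCTG (13% of all windows) or a cyclic AMP response element (TGACGTCA, 1.55%). None of these motifs overlap each other in the 2 windows. Among the other matched genes, the GC box was found in Tubb2a, Tubb3, Tubb4b, Tuba1a, Tuba1b and Tuba4a, the CCAAT box in Tubb3, Tubb4b and Tuba1a, CAGCTG in Tuba1b, and TATAAA and TGACGTCA in Tubb2a. These matches describe letters and were not tested against any readout.

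Tubb6 and Tubb5, both beta-tubulins, were called higher in dbTg muscle. The other tested beta-tubulin genes and the 2 tested alpha-tubulin genes, Tuba1a and Tuba8, were not called. In limma with Benjamini-Hochberg adjustment over all 13308 tested genes and a threshold of 0.05, 2 of the 7 tested isotypes were called higher and 0 lower. The same number passed an unadjusted p under 0.05, where 18.7% of all tested genes passed. Over all tested genes 2.01% were called higher and 0.203% lower, which makes 2.21% in either direction. The isotypes were listed when differences between these genotypes were already known, so their count is not read against that share. Values are log2 RMA expression values throughout, and a difference is dbTg minus WT.

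**Figure D1:**
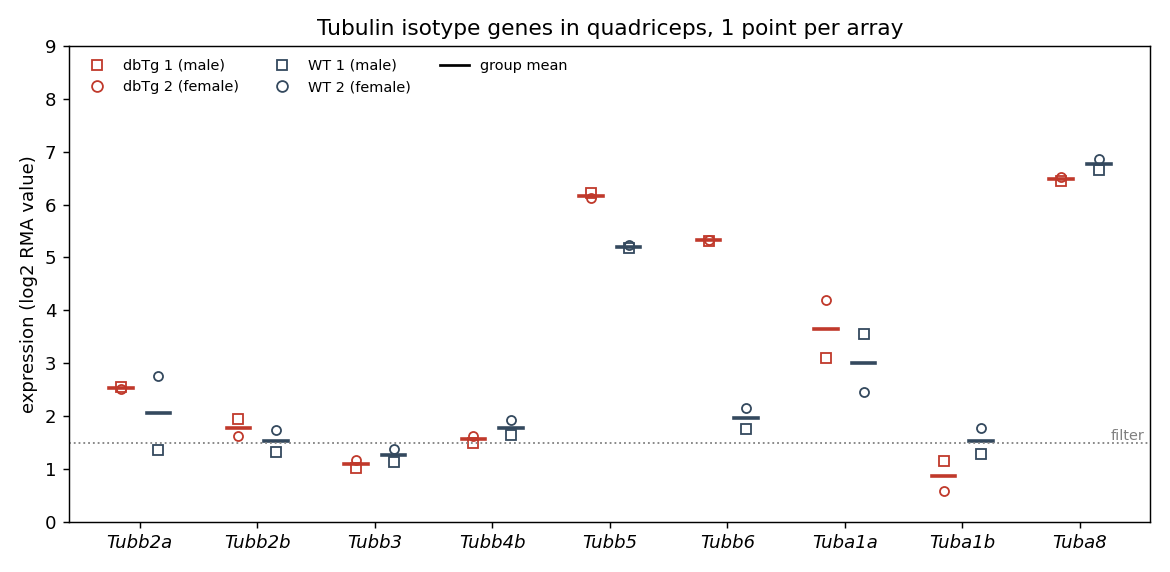
Log2 RMA expression value of the 9 measured tubulin genes on each array, dbTg in red to the left of WT in dark blue, with squares for males, circles for females and a line at each group mean; the dotted line is the filter at 1.48. Tubb6 sits near 5.32 on both dbTg arrays, against 1.75 and 2.16 on the WT arrays, while the points of Tuba1a cross between groups.

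Tubb6 read 5.32 and 5.32 in dbTg muscle, against 1.75 and 2.16 in WT muscle. Both dbTg arrays lay well above both WT arrays. The means were 5.32 ± 0.0037 in dbTg and 1.95 ± 0.29 in WT (SD, n = 2 each), a difference of 3.37 (SE 0.23, 95% interval 2.83 to 3.91) or 10.3-fold (limma adjusted p = 0.00309). The males differed by 3.57 and the females by 3.17. Tubb6 has 1 probe set, so no second readout on the array bears on it. Its WT values lay not far above the WT array medians of 1.58 and 1.60, and RMA compresses differences of such dim probe sets. Its call was lost without dbTg replicate 1 (difference 3.37, limma adjusted p = 0.0755) and without dbTg replicate 2 (3.36, limma adjusted p = 0.0900), where the lone array is assumed to vary like the WT group.

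Tubb5, a beta-tubulin found in most cell types, read 6.21 and 6.12 in dbTg muscle, against 5.17 and 5.24 in WT muscle. The groups did not overlap, and the arrays of a group differed by less than 0.1. The means were 6.16 ± 0.064 in dbTg and 5.20 ± 0.047 in WT (SD, n = 2 each), a difference of 0.96 (SE 0.16, 95% interval 0.57 to 1.35) or 1.95-fold (limma adjusted p = 0.0431). The males differed by 1.04 and the females by 0.88. The adjusted p lay close to the threshold, and 10 of 14 other settings ended the call, with adjusted p-values of 0.0268 to 0.342 over all 14. Leaving out either dbTg array was among them (limma adjusted p = 0.280 without dbTg replicate 1 and 0.342 without dbTg replicate 2), as was the replicate number, which is also the sex, as a block (limma adjusted p = 0.0971). With that block Tubb6 was called (limma adjusted p = 0.0269).

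A second, dimmer probe set of Tubb5, which the choice of the brightest row did not use, read 2.97 and 2.51 in dbTg muscle, against 2.47 and 2.45 in WT muscle. Its groups did not overlap either, but the female dbTg array lay only just above the WT arrays. The difference was 0.28, less than the gap of its own dbTg arrays (limma adjusted p = 0.662 over all probe sets). In that same fit over all probe sets the brighter Tubb5 probe set had a limma adjusted p of 0.207.

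The other tested beta-tubulin genes were not called. Tubb2a, best known from neurons, read 2.55 and 2.51 in dbTg muscle, against 1.35 and 2.75 in WT muscle. Its WT arrays lay on either side of the dbTg arrays, and the difference of 0.48 had a 95% interval of -0.54 to 1.51 (limma adjusted p = 0.608). The WT arrays decided its direction: leaving out WT replicate 1 gave -0.22, and leaving out WT replicate 2 gave 1.18 and a call (limma adjusted p = 0.0319). Tubb2b, its neighbour on the chromosome and a close relative, read 1.94 and 1.62 in dbTg muscle, against 1.32 and 1.74 in WT muscle. The groups overlapped (difference 0.25, 95% interval -0.29 to 0.78). A dimmer probe set of Tubb2b differed by -0.08. Reads of such near-identical pairs cannot be assumed to be gene-specific on an array.

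Tubb4b, a broadly expressed beta-tubulin that is also used in cilia, read 1.49 and 1.63 in dbTg muscle, against 1.64 and 1.92 in WT muscle. Both dbTg arrays lay below both WT arrays by a small margin, and the difference of -0.22 (95% interval -0.68 to 0.24) was not called (limma adjusted p = 0.604). Tubb3, the beta-tubulin used to mark neurons, was under the filter. It read 1.02 and 1.17 in dbTg muscle, against 1.13 and 1.38 in WT muscle, with overlapping groups.

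**Figure D2:**
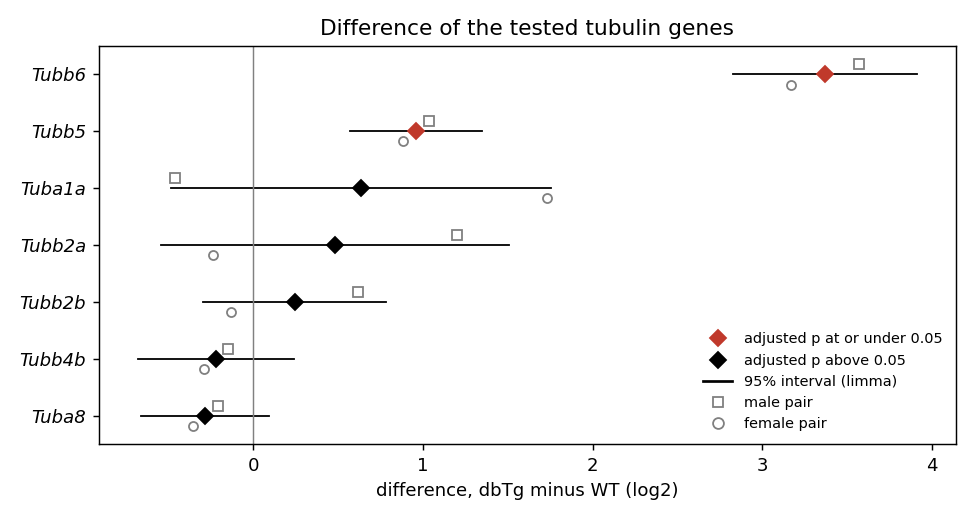
Difference on the log2 scale, dbTg minus WT, of the 7 tested tubulin genes, as limma estimate with its 95% interval (diamond and line, red where called), and in the single male pair (square) and female pair (circle). Tubb6 at 3.37 and Tubb5 at 0.96 are the 2 called genes, and the intervals of the other 5 include 0.

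Among the alpha-tubulins, Tuba8, an isotype known from muscle and testis, read 6.45 and 6.51 in dbTg muscle, against 6.66 and 6.87 in WT muscle. Both dbTg arrays were lower than both WT arrays, by a margin smaller than the gap between the WT arrays. The means were 6.48 ± 0.042 in dbTg and 6.76 ± 0.15 in WT (SD, n = 2 each), and the difference of -0.28 (SE 0.16, 95% interval -0.66 to 0.09) was not called (limma adjusted p = 0.397). A dimmer probe set of Tuba8 read 1.17 and 1.14 in dbTg muscle, against 1.50 and 1.65 in WT muscle, also without overlap (difference -0.42, limma adjusted p = 0.419 over all probe sets). In that same fit over all probe sets the brighter Tuba8 probe set had a limma adjusted p of 0.518.

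Tuba1a, an alpha-tubulin abundant in embryonic tissue and neurons, read 3.09 and 4.19 in dbTg muscle, against 3.55 and 2.46 in WT muscle. Within each group the arrays differed by more than 1, and the groups overlapped. The difference was 0.64, with a 95% interval of -0.48 to 1.75 (limma adjusted p = 0.525). The males differed by -0.46 and the females by 1.73. Its dimmer probe set differed by -0.13. Tuba1b, the common alpha-tubulin of most cells and the neighbour of Tuba1a, was under the filter. It read 1.15 and 0.59 in dbTg muscle, against 1.28 and 1.76 in WT muscle. Its only other probe set is shared with a second gene and was not used, and no call of presence accompanies these values, so its level here is not read as absence.

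Over the 7 tested isotypes, 5 differences were positive and 2 negative, with a median of 0.48. Over all tested genes 60.5% of differences were positive and the median was 0.09. The groups did not overlap for 4 of the 7, with dbTg above for 2 and below for 2. Over all tested genes the groups did not overlap for 50%, with dbTg above for 33.7% and below for 16.3%. The male and the female pair differed in direction for 3 of the 7 isotypes (Tubb2a, Tubb2b and Tuba1a), and for 36.4% of all tested genes. The last isotypes inside the filter were Tubb2b and Tubb4b, with means over the 4 arrays of 1.66 and 1.67, and the first outside were Tuba1b and Tubb3, at 1.19 and 1.17. Since a mean over all arrays helps genes that are high in one group, the 7 do not stand for all isotypes.

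Other genes of tubulin and microtubule biology were read from 6 lists. Of 120 tested genes, 5 were higher (4.17%) and 0 lower in limma, against the 2.01% and 0.203% of all tested genes given above. Positive differences were found for 76 (63.3%), where all tested genes gave 60.5%. The 5 were Vash2, Ttll1, Map1b, Map1a and Dclk1. At an unadjusted p under 0.05, 16 passed with a positive (13.3%) and 4 with a negative difference (3.33%), no larger shares than the 14% and 4.64% of all tested genes. These lists were also drawn up with earlier results of these data known. Every one of the 5 lost its call without dbTg replicate 1 and without dbTg replicate 2, fits in which 4 of all 13308 genes were called, while the differences stayed between 1.22 and 2.76. With the replicate number, which is also the sex of the mouse, as a block, Map1b was called (limma adjusted p = 0.0410), and Vash2, Ttll1, Map1a and Dclk1 were not (0.0787, 0.0943, 0.0938 and 0.0989).

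Enzymes that modify tubulin held 2 of the called genes among 17 tested, with a list median of 0.17. Vash2, a carboxypeptidase that removes the C-terminal tyrosine of alpha-tubulin, read 3.24 and 3.57 in dbTg muscle, against 1.82 and 1.51 in WT muscle. The groups lay far apart (difference 1.74, SE 0.24, limma adjusted p = 0.0245), and without a dbTg array the adjusted p was 0.137 to 0.247. Its partner protein gene Svbp had a difference of 0.71 (limma adjusted p = 0.132). Ttll1, the catalytic subunit of a complex that adds glutamate chains to tubulin tails, read 5.33 and 5.55 in dbTg muscle, against 4.28 and 3.92 in WT muscle. Its groups did not overlap (difference 1.33, SE 0.21, limma adjusted p = 0.0357), and without a dbTg array the adjusted p was 0.210 to 0.346. Ttll7, another glutamate-adding enzyme, differed by -0.96 (limma adjusted p = 0.152). Svbp and Ttll7 were named after their values were seen.

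Microtubule-associated proteins held the other 3 called genes among 30 tested, with a list median of 0.05. Map1b, a microtubule-binding protein of growing axons, read 7.47 and 7.29 in dbTg muscle, against 5.31 and 4.09 in WT muscle. Both dbTg arrays were more than 1 above both WT arrays, which themselves differed by more than 1 (difference 2.68, SE 0.37, limma adjusted p = 0.0245, and 0.193 to 0.228 without a dbTg array). Map1a, its relative from mature neurons, read 3.84 and 3.99 in dbTg muscle, against 2.58 and 2.66 in WT muscle. The arrays of each group lay close together (difference 1.30, SE 0.21, limma adjusted p = 0.0376, and 0.238 to 0.352 without a dbTg array). Dclk1, a kinase with microtubule-binding doublecortin domains, read 3.82 and 4.03 in dbTg muscle, against 2.65 and 1.88 in WT muscle. It was the nearest of the 5 to the threshold (difference 1.67, SE 0.30, limma adjusted p = 0.0470, and 0.246 to 0.368 without a dbTg array).

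The remaining lists had 0 called genes in limma. Of 19 tested folding genes, which cover the chaperonin and the tubulin cofactors, 14 had positive differences (73.7%, where all tested genes gave 60.5%). At an unadjusted p under 0.05, 3 were higher (15.8%, where all tested genes gave 14%), and the list median was 0.26. Cct8, a chaperonin subunit, had the smallest p of them (difference 0.57, limma adjusted p = 0.0979). Of 17 nucleation and severing genes, 2 were higher at an unadjusted p under 0.05 (11.8%, where all tested genes gave 14%). The list median was 0.10, with Nin, the anchoring protein ninein, at 1.14 (limma adjusted p = 0.0834). Nin was called without WT replicate 2 (difference 1.50, limma adjusted p = 0.00806). Of 28 motor genes (median 0.11), 4 passed an unadjusted p under 0.05. Of these, 3 had positive differences (10.7% of the list, where all tested genes gave 14%). The other was the kinesin gene Kif1c, at -1.01 (limma adjusted p = 0.0871). Of 5 other tested tubulin genes 0 passed an unadjusted p under 0.05 (median 0.08), and Tubd1, the delta-tubulin of centrioles, differed by -0.61 (limma adjusted p = 0.311).

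**Figure D3:**
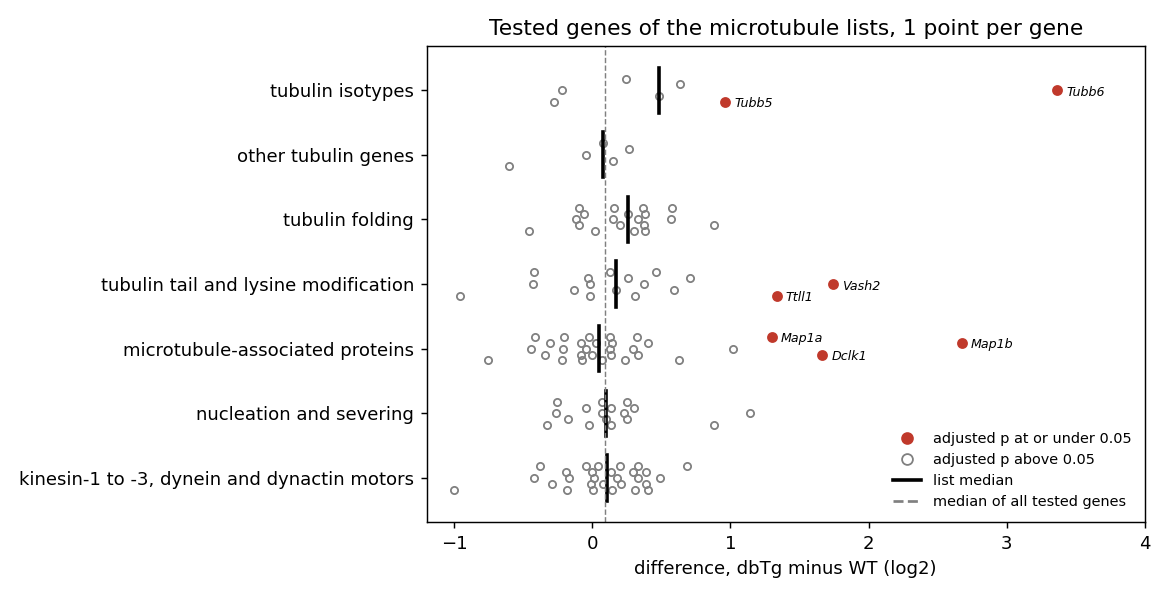
Difference on the log2 scale, dbTg minus WT, of each tested gene of the tubulin isotypes and of 6 microtubule lists, with called genes in red, list medians as black bars and the median of all tested genes, 0.09, as a dashed line. Tubb6 and Map1b lie farthest to the right, at 3.37 and 2.68, while the medians of the 6 lists lie between 0.05 and 0.26.

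Some of the marker lists of other cells and fibre states moved with Tubb6 and Tubb5, and the endothelial list moved the other way. In bulk tissue a change in the number of cells of a type and a change in RNA per cell cannot be told apart. Markers of mature fibres read high on all 4 arrays and were not called (10 tested, mean levels of 10.12 and 10.13 in dbTg and of 9.95 and 10.27 in WT), with Myh1 at 0.51 and Ckm at -0.36. The marker lists were drawn up with earlier results of these data known. Among all tested genes 60.5% of differences were positive and 2.01% were called higher in limma. Of 12 markers of regenerating or denervated fibres, 12 had positive differences and 8 were higher in limma. Their mean level was 6.04 and 6.02 in dbTg, against 3.64 and 3.43 in WT, with Ankrd1 (4.61) and Myh3 (4.03) farthest apart. Of 14 macrophage and leukocyte markers, 14 had positive differences and 9 were higher, with mean levels of 4.88 and 4.61 in dbTg, against 2.85 and 2.62 in WT. Ctss (4.23) and Cd68 (3.76) led them. The part of either in the Tubb6 and Tubb5 differences was not tested.

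The lists of other cell types moved less. For comparison, 2.01% of all tested genes were called higher in limma. At an unadjusted p under 0.05, 14% of all tested genes were higher and 4.64% lower. Fibroblast markers averaged 6.74 and 6.76 in dbTg, against 6.07 and 5.92 in WT (0 of 7 called in limma and 4 higher at an unadjusted p under 0.05), with Lum at 1.34 and Col3a1 at 1.24. Adipocyte markers averaged 4.67 and 4.66 in dbTg, against 3.63 and 3.58 in WT, and 3 of 6 were higher, with Adipoq at 1.47 and Cidec at 1.46. Endothelial markers averaged 3.73 and 3.88 in dbTg, against 4.28 and 4.43 in WT (0 of 8 called and 4 lower at an unadjusted p under 0.05), with Kdr and Cdh5 both at -0.85. Nerve and Schwann cell markers averaged 2.33 and 2.71 in dbTg, against 1.90 and 2.33 in WT. Of the 4 tested, 0 were called and 1 was higher at an unadjusted p under 0.05. Their differences did not share a direction: 2 were positive, Gldn at 1.38 and Pmp22 at 0.71, and 2 were negative, Mbp at -0.27 among them. Gldn was called without WT replicate 2 (limma adjusted p = 0.00959). Proliferation markers averaged 1.96 and 1.93 in dbTg, against 1.56 and 1.97 in WT. Of the 4 tested, 0 were called and 1, Mki67 at 0.75, was higher at an unadjusted p under 0.05. Their differences were positive for 2 and negative for 2, with a median of 0.02. Platelet markers averaged 1.83 and 1.94 in dbTg, against 1.94 and 1.69 in WT (0 of 3 called and 0 at an unadjusted p under 0.05). The parts of these cell types were not tested either.

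**Figure D4:**
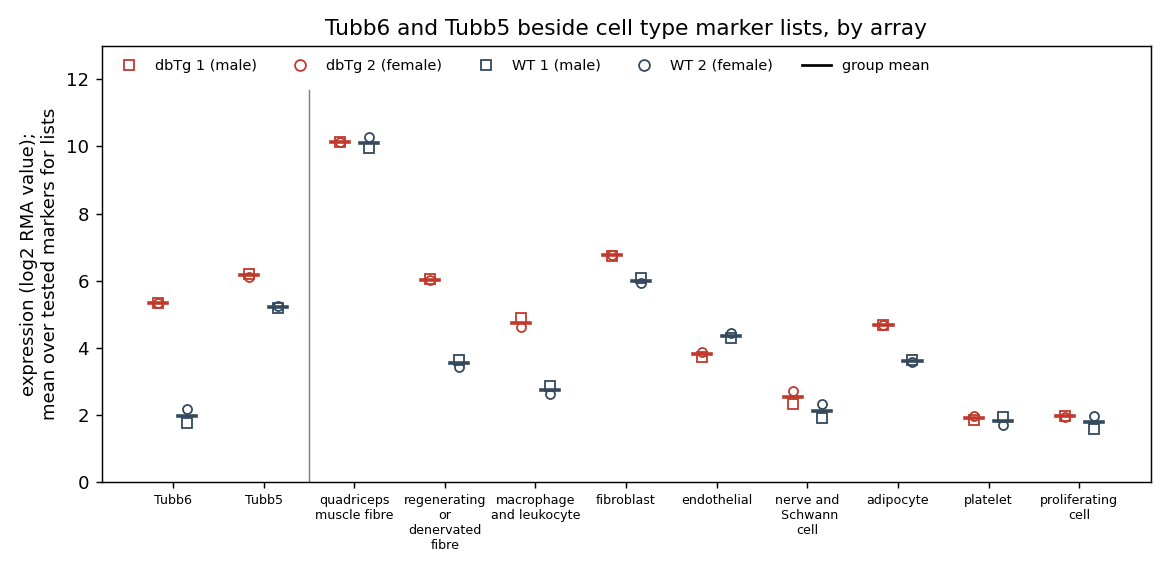
Log2 RMA expression value of Tubb6 and Tubb5, and the mean over the tested genes of each cell type marker list, on each array, with dbTg in red to the left of WT in dark blue and a line at each group mean. Regenerating or denervated fibre markers lie higher on both dbTg arrays (6.04 and 6.02, against 3.64 and 3.43 in WT), as Tubb6 does. Macrophage and leukocyte markers do so too, and adipocyte and fibroblast markers do so by less. Endothelial markers lie lower on both dbTg arrays, and the other lists, mature fibre markers among them, overlap between groups.

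The likeness of other genes was measured as the Euclidean distance between profiles over the 4 arrays, after subtraction of each gene's mean. With so few arrays this describes them and carries no test. Closest to Tubb6 were Emb, the membrane glycoprotein embigin (distance 0.23 on the log2 scale), Cybb, the catalytic subunit of the phagocyte NADPH oxidase (0.43), and H2-Ab1, a class II antigen presentation gene (0.52). Emb read 4.98 and 4.87 in dbTg muscle, against 1.60 and 1.93 in WT muscle, a difference of 3.16 that was 1.56 with its probe sets averaged. Closest to Tubb5 were Bmper (0.042), Slc39a14 (0.060) and Tec (0.066), with differences of 0.96, 0.95 and 1.00 that were not called (limma adjusted p of 0.0742, 0.0739 and 0.0652). Closest to Tuba8 were Mbp (0.026), Mgat1 (0.029) and Rcsd1 (0.031), with differences of -0.27, -0.27 and -0.31. These small distances were found among the 13308 tested genes, less the isotypes and genes with predicted symbols (Gm with a number, or Rik). Many of the genes searched differ little between arrays.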

How the data were processed

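Total RNA from 4 quadriceps samples was measured on Affymetrix whole-transcript arrays. The authors deposited log2 RMA values made with Affymetrix Expression Console (RMA-sketch), per the labels' descriptions. Neither a software version nor an annotation build is given in the sources used here. RMA subtracts background, normalizes arrays by quantiles and summarises probe sets, which compresses differences of dim genes. The deposited values still differed in spread between the groups. Their upper quartiles were 2.99 and 2.98 in dbTg and 2.80 and 2.78 in WT. Their lower quartiles were 0.99 and 0.99 in dbTg and 1.10 and 1.09 in WT.

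Of 41345 probe sets, 23521 had 1 symbol, 1814 several and 16010 none, and only the first were named. Of these, 23328 were matched by Entrez ID to RefSeq (GRCm38.p6), and 0 symbols changed. The brightest probe set stood for each of 22180 genes. Genes were kept from the 40th percentile of the 4-array mean upward, 1.48, and the resulting 13308 were tested with limma 3.58.1 in R 4.3.3 (lmFit, eBayes with trend, 2 residual and 4.76 prior degrees of freedom, two-sided, Benjamini-Hochberg over all tested genes, threshold 0.05). An exact permutation test of 2 against 2 arrays cannot go below p = 0.333 and was not used. Precision is limited by the number of arrays. The fit was also run on simulated arrays drawn from its own variance prior, without a sex effect or a group-wide shift. That checks the code and not the calls.

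The arrays correlated across genes with r = 0.981 within dbTg, 0.966 within WT and 0.946 to 0.953 between groups. Replicate numbers also mark the sex of the mice. The series' design text names no covariate, so the reported fit has no block, and the block is an alternative. The isotypes and gene lists were chosen with earlier results of these data known. Named genes are all isotypes, up to 3 called genes per microtubule list or else the 1 with the smallest p, the 2 largest differences per marker list (for the platelet and proliferation lists partly in the closing section), and the 3 nearest profiles. The fit was repeated without each array, with the replicate block, after median centring or quantile normalization, with other filters and variance priors, with probe sets of a gene averaged, and on single probe sets.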

Additional observations from a re-analysis of the deposited data

Results flagged for a closer look

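The male and the female pair differed in direction for 3 of the 7 tested isotypes, where 36.4% of all tested genes did so. Each sex has 1 dbTg and 1 WT mouse, so the difference between the pairs was not tested, and sex and the individual mice cannot be told apart. For Tuba1a the males differed by -0.46 and the females by 1.73, a gap of -2.19. For Tubb2a the differences were 1.20 (male) and -0.24 (female), a gap of 1.44. For Tubb2b they were 0.62 and -0.13, a gap of 0.75. Among the other named genes the same held for the platelet genes Itga2b (-0.45 and 0.68, a gap of -1.14) and Gp9 (-0.05 and 0.20, a gap of -0.25) and for the mitotic kinase gene Aurkb (0.23 and -0.40, a gap of 0.63). Tubb6, Tubb5, Tubb4b and Tuba8 kept 1 direction in both pairs.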

How the results depend on the processing

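Tubb6 stayed higher under all 14 alternatives (3.12 to 3.57) and called under 11. It lost its call without either dbTg array and when every probe set was tested on its own (limma adjusted p = 0.0700). Against 2 isotypes called higher in the reported fit, the count was 0 to 3 when 1 array was left out (3 with Tubb2a, without WT replicate 2; 0 without either dbTg array). It was 1, Tubb6 alone, with the replicate block, with median centring, with quantile normalization, with no filter, with the filter at the 20th percentile, with probe sets averaged and without an intensity trend. Averaging brings in the dimmer Tubb5 probe set (mean difference 0.62, adjusted p = 0.164). Against 5 microtubule list genes called higher, the count was 0 to 8 with 1 array left out, 1 with the replicate block (Map1b), 2 with median centring, 2 with quantile normalization (Map1b and Vash2 in both) and 3 with no filter. Against 0 called lower, it was 0 to 1 with 1 array left out (Clip4 without WT replicate 1, Ttll7 without WT replicate 2). Deviations of same-numbered arrays from their group means correlated at r = 0.049 across genes. Same-numbered mice share a sex, and nothing in the labels pairs them further.

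Over all genes, 267 were called higher and 27 lower, against 4 and 0 without either dbTg array, 610 and 156 when WT replicate 1 was left out, 593 and 142 when WT replicate 2 was, 63 and 2 with the replicate block, 120 and 7 after quantile normalization, 165 and 7 with no filter, 184 and 9 under a filter set at the 20th percentile, 325 and 44 under one at the 60th and 246 and 14 without an intensity trend. Median centring gave 124 and 65, so 65.6% of calls were higher, against 90.8% in the reported fit, and it placed the median of all genes at -0.16, against 0.09. It moves every difference by -0.25 on the log2 scale, so it turns the sign of any positive difference smaller than that and cannot change their order. Differences that changed sign, none of them called in the reported fit, were Tubb2a (-0.22 to 1.18 with 1 array left out), Tubb2b (-0.0025 with median centring), Itga2b (-0.32 to 0.55 with 1 array left out, -0.13 with median centring), Gp9 (-0.0029 to 0.15 with 1 array left out, -0.17 with median centring) and Aurkb (-0.36 to 0.19 with 1 array left out). The causes were not tested.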
